A study of Mus musculus with 15 samples.

Results

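The baseline of the series is the vehicle group: 3 of its 15 arrays, those titled as DMSO replicates 1 to 3, which give the expression of primary chondrocytes before any inhibitor is considered. Chondrocytes were isolated from the long bones of CD1 mouse embryos at day 15.5 and grown in monolayer. Incubation with DMSO, the solvent of the inhibitors, lasted 24 hours. The medium held 10% serum, 0.25 mM ascorbic acid and 1 mM β-glycerophosphate. The other 12 arrays hold 3 each of cells given LY294002, a PI3K inhibitor, UO126, a MEK inhibitor, SB202190, usually described as a p38 inhibitor, and TSA (trichostatin A), a histone deacetylase inhibitor. The first 3 inhibitors were used at 10 µM, all groups shared the 24 hours, the strain, the stage and the supplements, and the unit of the TSA dose cannot be read from the labels. The limb source is given as hind limbs in the series design and as tibiae, femurs and humeri in the growth protocol. The cultures were not sorted, so each array measures RNA from every cell in the dish, and the labels name no embryo or litter.

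Chondrocytes make a matrix of type II collagen fibrils, with collagen XI inside and collagen IX on the surface, that holds the proteoglycan aggrecan. In the growth plate they divide in columns and then enlarge as hypertrophic chondrocytes, which make type X collagen and mineralizing enzymes. The transcription factor Sox9, with Sox5 and Sox6, drives the cartilage matrix genes. In monolayer, chondrocytes are known to drift toward a fibroblast-like state that makes type I collagen.

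The comparison of the 3 arrays turns on genes of both the growth plate and muscle, so the 100 bases before the start of 3 of them are shown, from the RefSeq annotation of mouse build GRCm38.p6. Col10a1 (type X collagen) and Acan (aggrecan) stand for cartilage and Myh3 (embryonic myosin heavy chain) for muscle. The regions are chr10:34389881-34389980, chr7:79053126-79053225 and chr11:67078200-67078299, all on the plus strand. Capitals mark TATAAA, the letters of the TATA box, searched on both strands.
Col10a1: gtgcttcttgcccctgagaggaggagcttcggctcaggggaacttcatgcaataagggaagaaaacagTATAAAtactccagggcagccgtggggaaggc
Acan: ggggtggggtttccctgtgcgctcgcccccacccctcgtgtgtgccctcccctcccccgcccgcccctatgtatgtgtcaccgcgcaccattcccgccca
Myh3: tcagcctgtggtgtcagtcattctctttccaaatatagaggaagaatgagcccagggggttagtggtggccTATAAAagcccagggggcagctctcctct
The motif began 32 bases before the start of Col10a1 and 29 before that of Myh3, and Acan held none in this window. Of all 27025 genes with a promoter entry, 5.95% held the motif in the same window. It was held by 3 of 7 hypertrophic genes with an entry (Col10a1, Mmp13 and Ibsp), by 2 of 33 cartilage genes and by 5 of 16 skeletal muscle genes. A match is a description of the letters and not a site in use.

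The arrays gave 1 MAS5 signal for each of 45101 probe sets, and the 34958 with 1 gene symbol covered 18193 genes. Where a gene had several, the probe set with the highest mean log2 signal over the 15 arrays stood for it. A signal of 50 or more was read as present and anything lower as under the threshold. The methods name the same threshold for a filter on signals. Signals of different probe sets are not on one scale, so ranks order signals and not amounts of transcript. Values are given in the order DMSO 1, DMSO 2 and DMSO 3, and as mean ± SD with n = 3. Median signals of the 3 arrays were 34.0, 39.96 and 34.7, and 42.7%, 44.96% and 42.8% of probe sets reached 50.

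Of the genes measured, 10048 (55.2%) were present on all 3 DMSO arrays, 642 on 2, 709 on 1 and 6794 (37.3%) on none. As a check of the threshold, 37 genes of tissues that limb cartilage lacks (retina, lens, liver, pancreas, testis and others) were followed. Of these, 1 was present on all 3 arrays: Bfsp2, a lens filament gene, at 55.5, 68.3 and 56.9. A further 2, Aqp2 and Sftpb, reached 50 on 1 or 2 arrays, and 34 stayed below on all 3, with a list median of 13.3. Close to the threshold, the list genes just inside were Mmp11 (lowest array 51.5) and Mapk7 (53.4), and those just outside were Tshb (highest array 49.8) and Cyp2e1 (49.4). Of 6526 present genes with several probe sets, 2229 (34.2%) had every probe set at 50 or more, so presence here means that at least the strongest probe set passed.

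The 4 marker genes chosen for the baseline, Col2a1, Acan, Sox9 and Col1a1, were all present on every array. Col2a1 (type II collagen) had signals of 3903, 6317 and 6880 (5700 ± 1582) and stood at rank 8 of all genes. Acan gave 1938, 2305 and 3301 (2515 ± 705). Both were lowest on DMSO 1 and highest on DMSO 3, although after quantile normalization Col2a1 gave 5161, 6027 and 6002. Sox9 gave 826, 667 and 1007 (834 ± 170) by the strongest of its 3 probe sets, and the others had means from 35.8 to 707. Col1a1, the type I collagen gene that marks fibroblasts and bone, gave 3259, 5446 and 5472 (4726 ± 1270, rank 42), so it was present beside the cartilage markers on each array.

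Cartilage genes were present almost throughout: 37 of the 41 measured reached 50 on all 3 arrays and 4 reached it on none. All 7 cartilage collagens passed. Col9a1, a chain of the type IX collagen that coats the fibrils, gave 3718, 4767 and 5454, and Col9a2, another chain, gave 257, 286 and 258. Col11a1, of the type XI collagen inside the fibrils, gave 3527, 4700 and 5227. The collagens as a list were lowest on DMSO 1 for 7 of 7 genes as deposited and for 6 of 7 after quantile normalization.

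Of 21 proteoglycan and matrix protein genes, 19 were present on every array, from Chad (chondroadherin; 98.7, 92.3 and 105) to Cnmd (chondromodulin, an inhibitor of vessel growth; 3404, 4338 and 5171). Hapln1, which links aggrecan to hyaluronan, gave 2132, 2296 and 2774. Epyc, a small leucine-rich proteoglycan of growth cartilage, gave 2561, 3157 and 3210. The matrilins Matn1 and Matn3, which bridge matrix fibrils, gave 1729, 1784 and 2093, and 1848, 2062 and 3252. Comp, a fibril-binding glycoprotein, gave 1869, 2182 and 3067. Cilp and Cilp2, matrix proteins known from deeper articular cartilage, were under the threshold, at 21.4, 40.0 and 16.4 and at 23.3, 26.9 and 22.3.

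Of 13 chondrogenic transcription factors measured, 11 were present. Sox5, a partner of Sox9, gave 287, 337 and 298, and Sox6, the other partner, gave 602, 450 and 549. Trps1, a GATA-type repressor of the growth plate, gave 1195, 997 and 931, and the limb mesenchyme homeobox gene Prrx1 gave 1368, 1262 and 1139. Nkx3-2 (20.1, 16.7 and 28.1), which holds chondrocytes before hypertrophy, and the homeobox gene Barx2 (5.04, 4.68 and 6.19) were under 50 on all 3 arrays. Unlike the collagens, these genes had no common low array: DMSO 1 was highest for 7 of 13 and lowest for 3. Runx2, the factor of hypertrophic cells and osteoblasts, was not analysed here.

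Growth plate stages were represented together. All 9 proliferation-stage genes were present, with Fgfr3, a receptor that restrains division, at 1079, 1002 and 1193, the division marker Mki67 at 748, 570 and 609, and the replication clamp Pcna at 2323, 2740 and 2899. All 10 hypertrophic genes were also present. Mmp13, the collagenase of late hypertrophy, gave 2701, 3070 and 3500, and Ibsp, a sialoprotein of mineralizing matrix, gave 1855, 1928 and 1574. Alpl, the alkaline phosphatase of mineralization, gave 226, 322 and 376. Ihh, the hedgehog ligand of prehypertrophic cells, gave 69.2, 88.9 and 146. Col10a1 gave 220, 374 and 1049, a mean of 548 with an SD of 441, so the arrays differed more in this marker than in any other on the stage lists.

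Of 9 articular and joint genes, 8 were present on all arrays. Prg4, which encodes the lubricant of joint surfaces, gave 352, 338 and 386, a spread of 24.8 (SD) around 359. Gdf5, a growth factor of the joint interzone, gave 141, 107 and 127, and Erg, a transcription factor of early articular cells, gave 172, 153 and 156. Creb5 passed on 2 arrays only (56.2, 33.6 and 78.6).

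**Figure D1:**
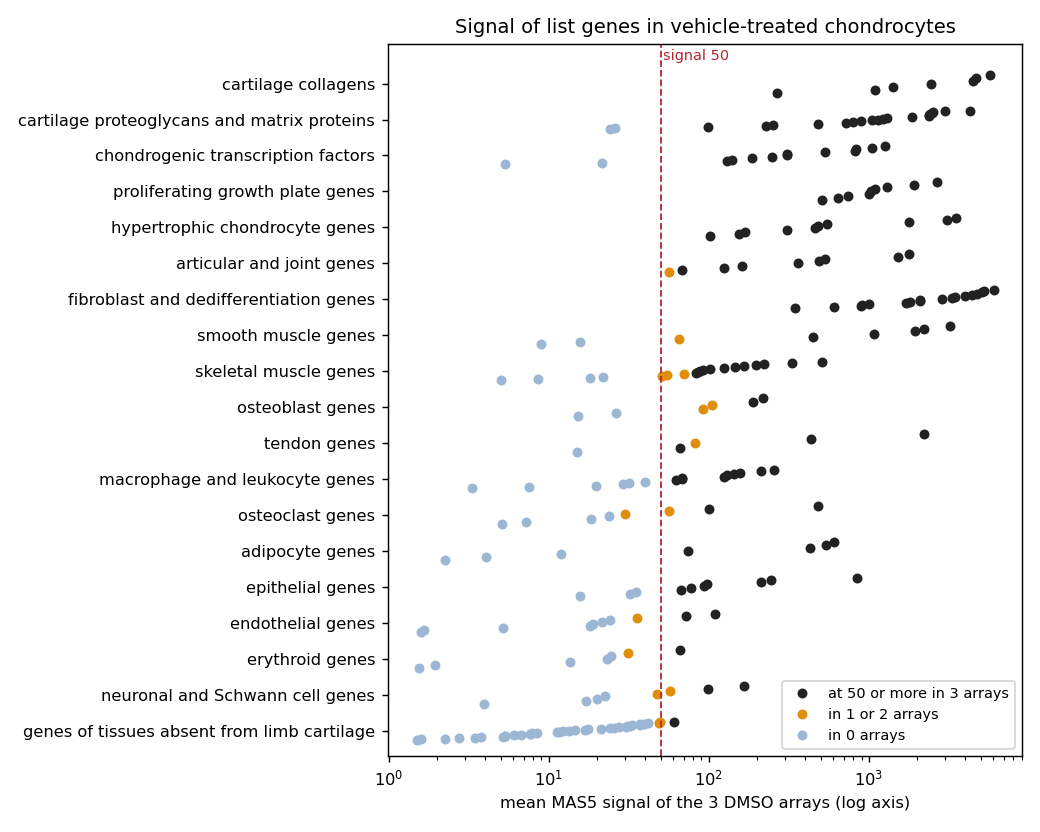
Each point is 1 gene, at its mean MAS5 signal over the 3 DMSO arrays (log axis, arbitrary units), in rows by gene list; black points reached 50 on all 3 arrays, orange on 1 or 2 and blue on none. Cartilage, stage and fibroblast genes lie almost entirely right of the line at 50, and the 37 genes of absent tissues lie left of it apart from 1 that passed on all arrays and 2 that passed on some.

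The genes with the highest signals were those of protein synthesis, the cytoskeleton and the matrix. Lgals1 (galectin-1) came first, at 5165, 7226 and 7810, and 18 of the first 30 genes and 33 of the first 100 encoded ribosomal proteins. Vim (vimentin, an intermediate filament of mesenchymal cells; 4743, 6029 and 7277) was at rank 5 and Sparc (a collagen-binding glycoprotein; 4144, 5459 and 6800) at rank 14. Col1a2, the partner chain of Col1a1 (3855, 5589 and 6241), was at rank 20 and Fn1 (fibronectin; 3829, 5306 and 6160) at rank 24. Igf2, a fetal growth factor, gave 3578, 5542 and 6193 at rank 23. After Col2a1, the next cartilage genes were Col9a1 at rank 45, Col11a1 at 56 and Cnmd at 64. The first 30 were shared by each array's own list for 21 genes and the first 100 for 85, and 33.3% of the first 30 rested on probe sets marked as open to cross-hybridization (_x_at), against 3.39% of all genes.

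The matrix supply genes accompanied the collagens. All 14 collagen-processing genes measured were present, among them Serpinh1, the collagen chaperone (3071, 4019 and 4251), P4hb, a subunit of prolyl 4-hydroxylase (3415, 4385 and 4784), and Lox, which cross-links fibrils (2831, 3553 and 3582). Of 16 proteases and inhibitors, 13 were present. Timp1, an inhibitor of matrix metalloproteinases, gave 2322, 3125 and 3869, while the aggrecan-cleaving proteases Adamts4 and Adamts5 gave 211, 196 and 205 and 502, 440 and 422. Mmp10 was under 50 on all arrays (8.96, 11.5 and 10.1). Of 17 integrins and receptors, 15 were present. Itga10, the collagen II-binding integrin of chondrocytes, gave 234, 220 and 228, and Itgb3 stayed below, at 44.8, 23.5 and 34.2.

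All 18 fibroblast and dedifferentiation genes were present on each array. Beside Col1a1, Col1a2 and Fn1, they included Col3a1 (type III collagen; 3516, 4459 and 5163) and Thy1 (a fibroblast surface protein; 303, 363 and 367). Acta2, the actin of smooth muscle and myofibroblasts, gave 2847, 3297 and 3549, and Tagln, its companion, gave 1625, 2010 and 2217. The smooth muscle list was present for 5 of 8 genes (62.5%, against 55.2% of all genes). Its more restricted members Myh11 (22.8, 5.26 and 18.9) and Lmod1 (8.96, 8.06 and 9.85) were under 50.

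**Figure D2:**
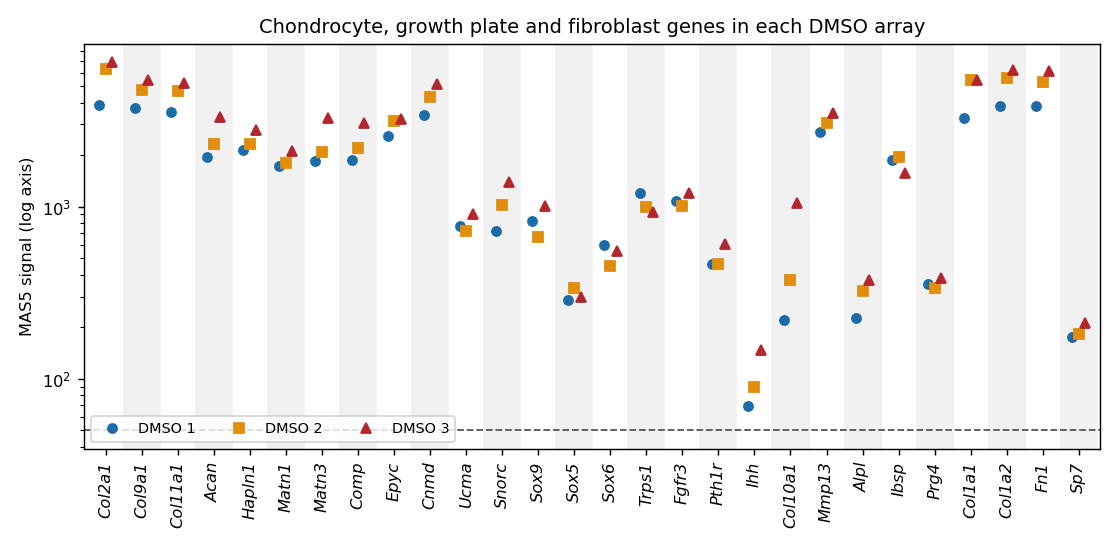
MAS5 signal (log axis, arbitrary units) of chondrocyte, growth plate and fibroblast genes on DMSO 1 (blue circles), DMSO 2 (orange squares) and DMSO 3 (red triangles), with the threshold of 50 dashed. Every gene shown lies above 50 on all 3 arrays, and Col10a1 has the widest gap, from 220 to 1049.

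Of genes of other lineages, 67 of 121 (55.4%) were present on all arrays, fibroblast genes included. This was near the 55.2% of all genes, so the pooled count by itself does not set these lineages apart. The lists it pools differed. The fibroblast list passed in full, and the others ran from 14.3% (erythroid) to 70.0% (epithelial). For osteoblasts, 2 of 6 measured genes passed: Sp7, the osteoblast transcription factor that hypertrophic cells also express (174, 182 and 211), and Dlx5 (238, 210 and 210). The osteocyte matrix gene Dmp1 (158, 110 and 47.0) and Ifitm5 (124, 107 and 44.3) passed on DMSO 1 and DMSO 2 but not on DMSO 3, and Phex and Mepe were under 50 throughout. Of the tendon list, Tnmd (tenomodulin) gave 479, 473 and 355, and Scx, the tendon transcription factor, passed on DMSO 2 alone (38.8, 164 and 42.8). In such mixed cultures, fewer cells of a type and less RNA per cell cannot be told apart.

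Endothelial genes were mostly under the threshold, whereas macrophage genes passed it at a share near the 55.2% of all genes. The macrophage count by itself therefore does not set this lineage apart. For macrophages, 9 of 15 passed, at moderate signals: Lyz2 (lysozyme) at 239, 276 and 256, the growth factor receptor Csf1r at 131, 154 and 148, and Adgre1 (F4/80) at 122, 148 and 122. F13a1, the factor XIII subunit made by macrophages and by chondrocytes, gave 197, 233 and 204. The defining leukocyte gene Ptprc (CD45) was at 12.7, 28.9 and 17.6, and C1qa, C1qb, C1qc, Tyrobp and Fcer1g were also below 50. For endothelium 2 of 10 passed (Kdr and Egfl7), while Pecam1 was at 2.37, 5.63 and 7.49 and Cdh5 at 17.9, 21.3 and 17.9. The summed list signal was 1251, 1452 and 1359 for macrophages and 282, 328 and 314 for endothelium, with DMSO 1 lowest and DMSO 2 highest in both. After quantile normalization the endothelial sum was 286, 305 and 322, highest on DMSO 3, and the macrophage sum kept its order.

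Of 7 erythroid genes, Epor alone passed on all arrays, and Hbb-y, an embryonic globin, was at 1.40, 1.63 and 1.59. For osteoclasts, Ctsk (cathepsin K; 474, 452 and 525) and Acp5 passed of 8, whereas Calcr (2.19, 9.92 and 3.11) did not. Of 7 adipocyte genes, Fabp4 (631, 597 and 590), Lpl, Cebpa and Pparg were present (57.1%, against 55.2% of all genes). The mature markers Adipoq, Cidec and Lep were under 50. Among 10 epithelial genes 7 passed (70.0%, against 55.2% of all genes). Krt18 was at 260, 249 and 230 but Cdh1 (E-cadherin) at 19.7, 16.4 and 10.9. Epcam gave 152, 1227 and 1165 by a probe set whose partner for the same gene had a mean of 11.5. Of 8 neuronal and Schwann cell genes, Stmn2 (215, 172 and 108) and Sox10 (91.4, 100 and 105) passed.

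Genes of both limb types were present. Tbx4, the transcription factor of the hind limb, gave 251, 266 and 239, and its hind limb regulator Pitx1 gave 194, 237 and 289. Tbx5, its forelimb counterpart, passed near the threshold, at 68.7, 74.1 and 76.6. In the Hox clusters, whose genes pattern the limb from shoulder or hip to digits, Hoxa9, Hoxa10 and Hoxa11 gave 944, 895 and 713, then 743, 664 and 675, and 525, 493 and 382. Of the digit genes, Hoxa13 was at 28.3, 27.9 and 25.9, and Hoxd13 passed on DMSO 1 and DMSO 2 but not on DMSO 3 (64.5, 58.8 and 39.5). Both Xist, the transcript of the inactive X chromosome (420, 418 and 518), and the Y-linked Eif2s3y (185, 134 and 95.8), Kdm5d (117, 98.0 and 70.5) and Uty (125, 92.4 and 77.1) were present on each array.

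Genes of the pathways that the inhibitors address were largely present at baseline, 30 of 36. Akt1, the kinase downstream of PI3K, gave 1138, 1396 and 1611, and the PI3K catalytic gene Pik3ca gave 234, 204 and 208. Pik3cd, another catalytic subunit, gave 2448, 4040 and 5740, yet its other 5 probe sets had means from 4.13 to 56.0, so its signal rested on 1 probe set. Of the MEK and ERK list all 6 passed, with Map2k1 (MEK1) at 586, 592 and 611. Of the p38 list 6 of 8 passed: Mapk14 (p38α) gave 579, 469 and 565, and Mapk11 and Mapk12 were under 50. Of 11 histone deacetylases 9 passed, with Hdac1 at 1237, 1106 and 1167 and Hdac2 at 1311, 1225 and 1250, and with Hdac8 and Hdac9 under 50.

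The 3 arrays resembled each other over the present genes, with Pearson correlations of log2 signals of 0.975 (DMSO 1 and 2), 0.974 (DMSO 1 and 3) and 0.984 (DMSO 2 and 3). These describe 10048 genes that share arrays and carry no test. The median coefficient of variation (CV, the SD over the mean) was 10.5%. It fell from 13.8% for genes with means of 50 to 100 to 7.59% at 1000 to 2000 and rose to 19.9% for the 83 genes at 4000 or more. In that highest class DMSO 3 exceeded DMSO 1 by a median ratio of 1.48. All of the first 100 genes were lowest on DMSO 1 as deposited, an order that quantile normalization did not keep for Lgals1 (6958, 6958 and 6732) or Vim (6551, 5810 and 6265). After quantile normalization the CV of the highest class was 4.43% and its ratio of DMSO 3 to DMSO 1 was 0.996. The highest signal on DMSO 1 was 5165, against 7226 on DMSO 2.

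**Figure D3:**
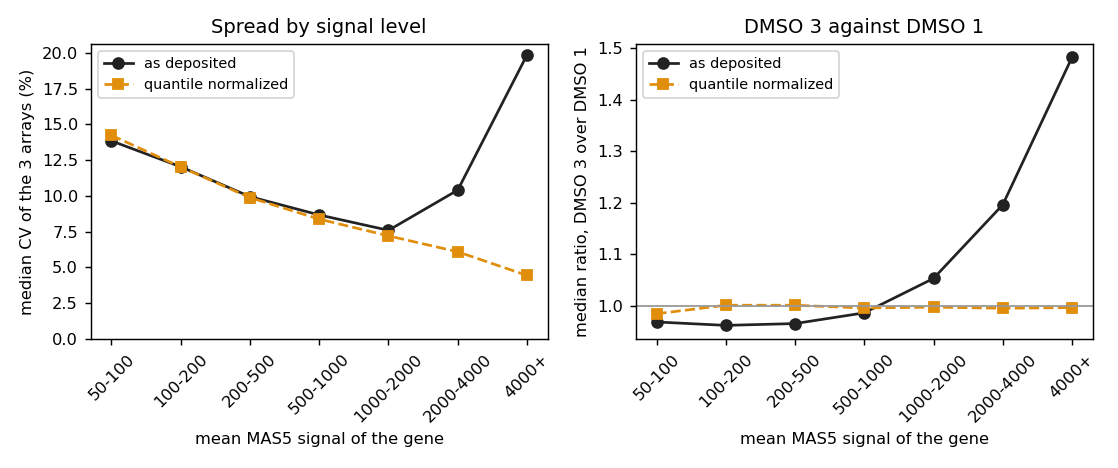
Left, median CV of the 3 DMSO arrays (%) and right, median ratio of DMSO 3 to DMSO 1, for genes grouped by mean MAS5 signal (horizontal axis), as deposited (black) and after quantile normalization (orange). As deposited, both curves rise in the highest classes, to 19.9% and 1.48, and after quantile normalization they do not (4.43% and 0.996).

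Large differences between single arrays were few. Of 6632 genes with a highest array of at least 200, 88 (1.33%) had a ratio of highest to lowest array of 2 or more. The highest array was DMSO 1 for 19 of them, DMSO 2 for 35 and DMSO 3 for 34. The first were Sox21, a neural Sox factor (210, 673 and 31.8, with another probe set at 17.7), and Rtel1, a helicase (198, 394 and 19.8). Fen1, a flap endonuclease of DNA replication, gave 990, 1089 and 4645, while its other probe set had a mean of 332. Rpl27a gave 41.8, 376 and 49.5 and Zdhhc14 gave 466, 165 and 80.3. In that order Col10a1 stood at rank 7, with a ratio of 4.77, and the cardiac and fetal muscle actin Actc1 at rank 18, with signals of 802, 484 and 240 and a ratio of 3.34.

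Skeletal muscle genes were present in part and separated the arrays. Of 19 genes, 12 passed on all 3 arrays (63.2%, against 55.2% of all genes), 3 on 1 or 2 and 4 on none. The sum of the list was 3275, 2316 and 1534 as deposited and 3231, 2299 and 1563 after quantile normalization, and DMSO 1 was highest for 14 genes and DMSO 3 lowest for 15. Acta1 (skeletal actin) gave 430, 335 and 234, Myl1 (myosin light chain) 323, 205 and 140, and Myh3 198, 110 and 66.2. Myog, the transcription factor of differentiating muscle, gave 136, 86.2 and 53.9. Myod1, the determination factor of myoblasts, passed on DMSO 1 and DMSO 2 but not on DMSO 3 (86.7, 81.4 and 41.4). The satellite cell and myoblast genes Pax7 (2.61, 7.98 and 15.1) and Myf5 (4.33, 6.98 and 3.70) were under 50. The array with the lowest muscle sum, DMSO 3, was the one on which Col10a1, Acan and Ihh were highest, before and after quantile normalization. Other members of their lists differed: DMSO 3 was highest for 6 of 10 hypertrophic genes on both scales, and Ibsp was lowest there. It was highest for 15 of 21 proteoglycan and matrix protein genes (13 after quantile normalization) and for 4 of 13 transcription factors (5 after it).

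Whether such differences recur with the array number was examined in the 12 treated arrays, which did not choose these genes. With inhibitor group and array number in a limma model, 133 of 11651 genes (1.14%) differed by number (F-test, adjusted p under the threshold). Of these, 53 were higher and 80 lower in number 3 than in number 1. On the DMSO arrays, 52 of the 53 were also higher in DMSO 3 than in DMSO 1 and 66 of the 80 lower, while 47.7% of all tested genes were higher in DMSO 3. The counts were 52 and 67 after quantile normalization. Of the 88 genes that spread between DMSO arrays, 9 (10.2%) differed by number in the treated arrays: Col10a1, Col11a2, Actc1, Bex1, Steap4, Itga8, Snrpd3, Malat1 and the predicted gene Gm6958. Sox21, Rtel1, Epcam and Fen1 were not among them. Over the alternatives the count of 9 ran from 3 without the variance trend to 14 without the TSA arrays. Leaving out array 3 of LY294002 or array 1 or 3 of UO126 or SB202190 gave 4, and leaving out LY294002 1 gave 5.

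Of 10 hypertrophic genes tested, 3 differed by number, all higher in number 3, against 1.14% of all genes in either direction. The rest did not pass, among them Mmp13 (0.46 ± 0.20), Ibsp (0.62 ± 0.27), Alpl (0.48 ± 0.12) and Ihh (0.53 ± 0.17). Only Vegfa was lower in number 3 (-0.13 ± 0.13). Col10a1 was 323, 416 and 921 with LY294002, 660, 819 and 2061 with UO126, 196, 290 and 476 with SB202190 and 375, 515 and 916 with TSA, so number 3 was highest and number 1 lowest in every group, as in DMSO. Its log2 difference between numbers 3 and 1 was 1.43 ± 0.09 (SE; limma adjusted p = 9.38e-05). Smpd3, a sphingomyelinase required for mineralization, was 343, 404 and 656 with LY294002 and 942, 1088 and 1687 with UO126, with a difference of 1.00 ± 0.08 (limma adjusted p = 0.000164). Both calls remained under each of the 17 alternatives. Panx3, a channel of hypertrophic cells, differed by 0.98 ± 0.18 (limma adjusted p = 0.0448) and lost its call under 12 of them, including the removal of any array but TSA 3 (adjusted p up to 0.141).

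Of 38 cartilage genes tested, 9 differed by number, all higher in number 3, against 1.14% of all genes in either direction. Snorc, a transmembrane proteoglycan of chondrocytes, differed by 0.90 ± 0.07 (limma adjusted p = 0.000298), Col11a2 by 0.71 ± 0.07 and Col9a3 by 0.63 ± 0.06. These calls remained under all 17 alternatives, and those of Matn3 (0.79 ± 0.10) and Prelp (0.54 ± 0.07) were lost only without the variance trend. Comp (0.57 ± 0.08) was lost also without UO126 3. Cytl1 (0.55 ± 0.09) was lost also without LY294002 3 or array 1 or 3 of UO126 or SB202190. Acan (0.49 ± 0.08, limma adjusted p = 0.0402) and Matn1 (0.40 ± 0.09) were lost under 12 and 15 alternatives, at adjusted p up to 0.156 and 0.147. Acan was lost without any array but TSA 2 or 3, and Matn1 without any array but LY294002 1. Sox9 (0.54 ± 0.12, limma adjusted p = 0.0836), Col2a1 (0.18 ± 0.12) and Col1a1 (0.16 ± 0.11) did not pass. The list count was 5 without UO126 3 and 3 without the variance trend.

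In the opposite direction, 4 of 14 skeletal muscle genes tested differed by number, all lower in number 3, against 1.14% of all genes in either direction. Actc1 was 551, 284 and 234 with LY294002, 917, 686 and 363 with UO126, 943, 649 and 436 with SB202190 and 54.7, 51.9 and 31.3 with TSA. Its difference between numbers 3 and 1 was -1.12 ± 0.12 (limma adjusted p = 0.0033), and the call was lost only with signals under 50 set to 50 (adjusted p = 0.0645). Tnni1, a troponin of slow muscle, differed by -1.45 ± 0.24, Myh3 by -1.26 ± 0.19 and Acta1 by -0.75 ± 0.11. Tnni1 and Myh3 lost the call without array 1 or 3 of LY294002, UO126 or SB202190, and Acta1 without UO126 1, SB202190 1 or 3, or TSA 1 (adjusted p up to 0.178). Tnni1 lost it also without LY294002 2, SB202190 2 or TSA 1. The count of 4 became 1 with signals under 50 set to 50 or without UO126 1, SB202190 1 or SB202190 3, 2 without LY294002 1, LY294002 3 or UO126 3, and 7 without TSA 3. The summed signal of the 19 muscle genes was 2312, 1412 and 1273 with LY294002, 4009, 3273 and 1864 with UO126, 4180, 3102 and 2160 with SB202190 and 699, 644 and 586 with TSA. It was lowest on array 3 in every group, where the cartilage genes above were higher, and its part in their differences was not tested.

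**Figure D4:**
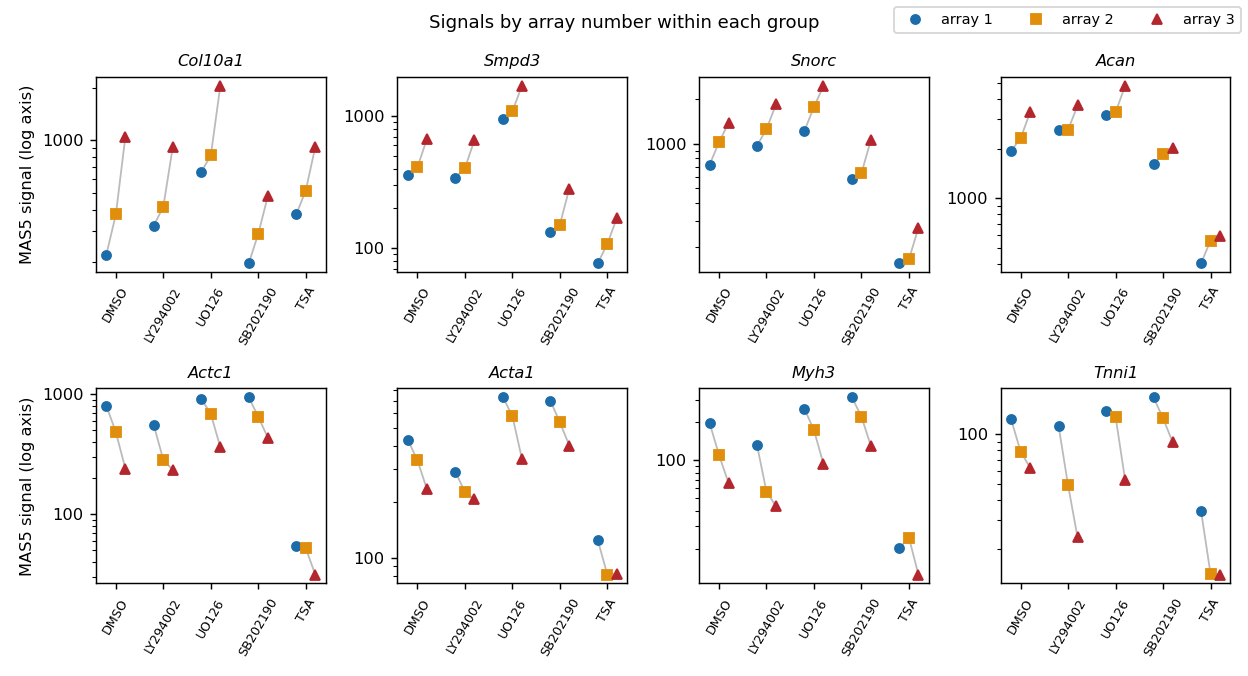
MAS5 signal (log axis, arbitrary units) of 4 growth plate genes (top) and 4 muscle genes (bottom) on arrays 1 (blue circles), 2 (orange squares) and 3 (red triangles) of each group, with grey lines joining arrays of 1 group. In DMSO and all 4 inhibitor groups, array 3 is highest for Col10a1, Smpd3, Snorc and Acan, and array 1 is above array 3 for the muscle genes.

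Set against the inhibitors in the fit without array number, fewer cartilage genes passed with LY294002, UO126 and SB202190 than with TSA. With the number as a block, the counts for LY294002, UO126 and SB202190 were larger, as given below. The 4 comparisons share the 3 DMSO arrays. With LY294002, 2 of 38 cartilage genes were higher and 0 lower, where 5.65% of all 11716 genes tested were higher and 3.85% lower. The list median was 0.19 (log2), against 0.01 over all genes. The 2 were Matn4 (692 against 478 in DMSO) and the Wnt antagonist Frzb (314 against 226), with limma adjusted p of 0.0447 and 0.0485. Both calls were lost without DMSO 1, DMSO 3, TSA 2, any LY294002 array or any UO126 array, at adjusted p up to 0.145. The list count was 0 without DMSO 3, LY294002 2, LY294002 3 or UO126 3, 1 without DMSO 1, DMSO 2, LY294002 1, UO126 1 or 2, SB202190 1 or 3 or TSA 1, and 5 without TSA 3. The LY294002 arrays were treated as paired with DMSO by number after the check described in the processing. With the number as a block 12 cartilage genes were higher and 0 lower, where 9.53% of all genes were higher and 6.89% lower. The 12 included Col9a3, Col11a2, Comp and Sox6.

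With UO126, 4 cartilage genes were higher and 2 lower, against 1.89% and 1.57% of all genes. With the number as a block 14 were higher and 2 lower, against 3.39% and 2.58% of all genes, and the 14 included Acan. Col9a2 was 633 against 267 in DMSO, a log2 difference of 1.20 ± 0.21 (limma adjusted p = 0.00559). Fmod (fibromodulin, a fibril-binding proteoglycan) was 2018 against 893 and Frzb 492 against 226, while the secreted factor Cytl1 was 614 against 1298. The calls of Mef2c (0.57 ± 0.14) and of the Wnt inhibitor Wif1 (-0.64 ± 0.16) were lost with any DMSO or UO126 array left out, among others (adjusted p up to 0.191). The list median was 0.36.

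With SB202190, 0 cartilage genes were higher and 6 lower, where 2.01% and 1.52% of all genes were. With the block 0 were higher and 10 lower, against 3.82% and 2.84%, and the 10 included Acan, Matn3 and Snorc. Ucma, a vitamin K-dependent protein of resting cartilage, fell to 320 from 799 (limma adjusted p = 2.84e-05) and Wif1 to 83.2 from 251 (adjusted p = 4.77e-05). Scrg1, Fmod, Chad and Foxa3 were lower by 0.63 to 0.72 on the log2 scale, and each lost its call under some alternatives. All 4 did so without DMSO 2 or SB202190 1, 3 of them without DMSO 3 or SB202190 2, and Fmod and Foxa3 without SB202190 3 (adjusted p up to 0.197). Chad was lost also without DMSO 1, and Chad and Fmod without some arrays of other inhibitors. The list count was 2 without DMSO 2 or SB202190 1 and 3 without DMSO 3 or SB202190 2. The list median was -0.26.

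With TSA, 32 of 38 cartilage genes were lower and 3 higher, in a comparison where 28.4% of all genes were lower and 30.4% higher. The list median was -1.49, against -0.001 over all genes. Scrg1 fell to 69.8 from 1219 and Matn3 to 163 from 2387. Acan fell to 519 from 2515 (-2.26 ± 0.21, limma adjusted p = 2.34e-07) and Sox9 to 296 from 834 (-1.52 ± 0.23, adjusted p = 4.6e-05). Col2a1 did not pass, at 5634 against 5700 (0.02 ± 0.19, limma adjusted p = 0.95), nor did Col1a1, at 4032 against 4726 (-0.20 ± 0.18, adjusted p = 0.372). Means of Col2a1 ran from 5484 to 6012 over all groups, near the highest signals of the arrays, with an SD of 1582 in DMSO. A lack of change at that level is therefore uncertain. The 3 higher genes were Cilp2, Mef2d and Wif1, whose calls were lost without TSA 1, without DMSO 1 or TSA 2 or 3, and without any DMSO array, among others. Cilp2, with a mean of 24.2 in DMSO, entered the test only through its mean of 53.5 with TSA, so its direction was fixed by the filter. Without it, 2 of 37 were higher. In presence, 245 genes at 50 or more on all DMSO arrays were under it on all TSA arrays and 415 the reverse, against at most 60 and 34 with the other inhibitors.

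**Figure D5:**
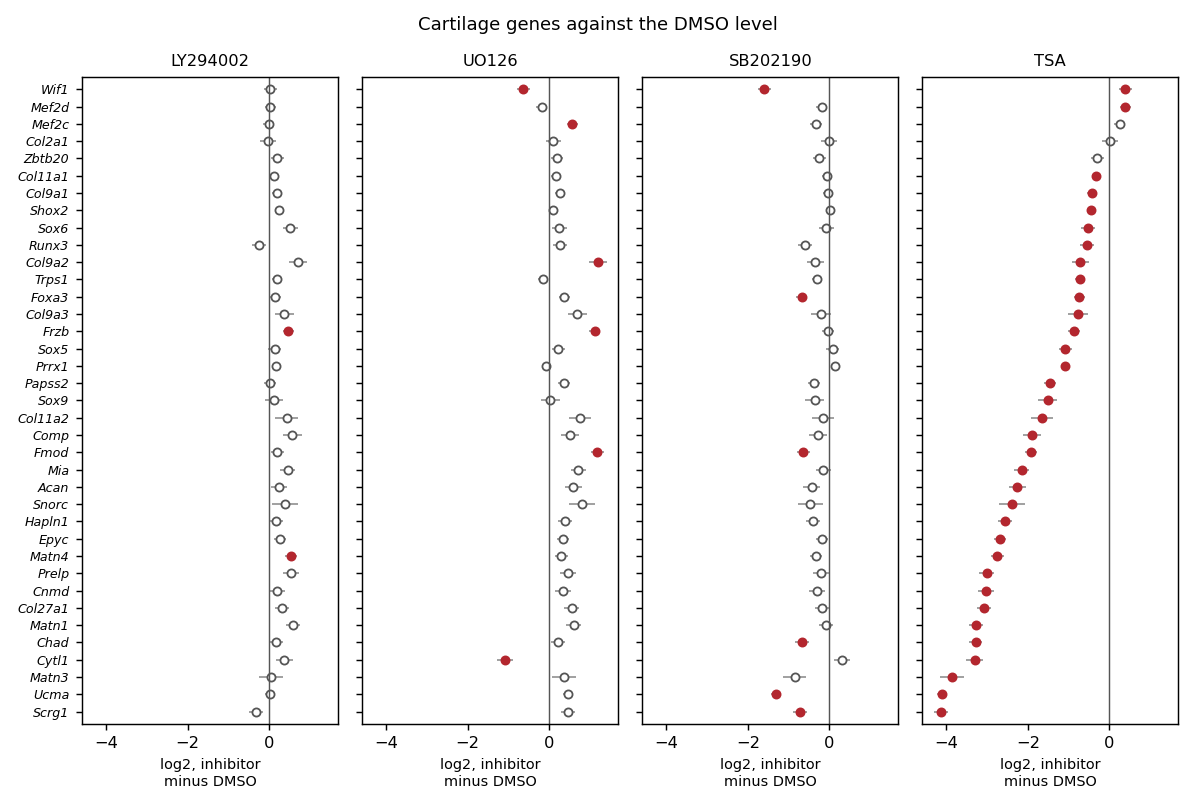
Log2 difference from DMSO (points, with SE bars; n = 3 arrays a group) of the 37 cartilage genes present on all DMSO arrays, 1 panel per inhibitor, ordered by the TSA difference; filled red points passed the limma threshold. The fit shown did not use the array number. Most points lie nearer to 0 in the first 3 panels than with TSA. With TSA most lie to the left, with Scrg1, Ucma and Matn3 farthest and Col2a1 near 0.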

How the data were processed

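Total RNA of each culture was hybridized to an Affymetrix MOE 430 2.0 array. The authors deposited MAS5 signal intensity values, 1 table for all samples, summarized per probe set and scaled to a trimmed mean of 150 on every array (2% trimmed at each end). The values are linear, and no detection calls were used. The number of arrays limits the precision. The submitters' processing notes name MAS5.

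Of 45101 probe sets, 64 were controls, 932 had several symbols and 9211 none listed in the platform annotation. By gene ID, 99.4% of the rest matched RefSeq, which changed 0 symbols. Of 366 genes in 29 lists, 335 were measured and the other 31 were not analysed here.

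Means, SDs, ranks and ratios used the signals as deposited, in Python 3.11.15. Tests used log2 signals with a floor of 1 and limma 3.58.1 (R 4.3.3) with a variance trend. Probe sets with a group mean of 50 in at least 1 group entered. Inhibitors were compared with DMSO in a fit of all 15 arrays. Array number was tested in the 12 treated arrays with inhibitor as a covariate. P-values were two-sided (F-test for number), adjusted by Benjamini-Hochberg over all probe sets tested, with a threshold of 0.05. The scripts were tested on simulated data.

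Groups came from the titles. The series calls the arrays biological replicates and the study independent experiments, but the labels do not tie equal numbers to one experiment. Deviations from the group means correlated between DMSO and treated arrays of the same number at 0.198 to 0.508 for LY294002, 0.27 to 0.527 for UO126 and 0.133 to 0.324 for SB202190, over 0.1 for all 3 numbers, so these were treated as paired. For TSA the correlations ran from 0.0481 to 0.179, and its arrays were not taken as paired with DMSO. The ranges of SB202190 and TSA overlapped, so the pairing is an assumption of the block fit and not a fact of the labels. The fit with the number as a block still held the TSA arrays under their own numbers. The test of array number in the treated arrays held them too.

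Genes named are the 4 markers, the 30 with the highest DMSO mean, the 20 with the highest ratio between DMSO arrays (highest array at least 200), predicted genes passed over, and list members with the highest and lowest signals or asked for by the lineage question. Other genes were named after their values were seen. The members and lists were chosen with earlier results of these data known. Alternatives were other scalings, thresholds, filters and probe set rules, a log offset of 16, no variance trend, the replicate block and leaving out each array.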

Additional observations from a re-analysis of the deposited data

How the results depend on the processing

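Of 687 alternative values, 597 kept their direction and their side of the threshold, or stayed within 1.5 times a count. Leaving out 1 DMSO array loosens the criterion of all 3 arrays to 2. Genes of absent tissues present on all arrays were 0 at a signal of 100, 8 at 25 and 1 to 2 with 1 array left out. Averaging all probe sets of a gene kept 16 of the 30 strongest and gave means of 525 for Sox9 and 3037 for Col1a1. Requiring a highest array of 500 left 29 of the 88 genes with a ratio of 2. Cartilage genes called with LY294002 numbered 1 with quantile normalization or signals under 50 set to 50, 4 with arrays scaled to the same median or a filter at 100, 0 without filter or trend, 12 with the replicate block and 0 to 5 with 1 array left out. For SB202190 they were 2 with median scaling, 3 without filter, 10 with the block and 2 to 6, for UO126 16 with the block and 4 to 9, and for TSA 29 to 35. By array number, the 88 genes gave 3 calls without trend, 3 at a ratio of 3, 14 without TSA and 4 to 12. Cartilage genes gave 3 without trend and 5 to 9. Muscle genes gave 1 without trend or with signals under 50 set to 50, 8 without TSA and 1 to 7. These last 2 list counts were chosen after seeing the data. Uncalled log2 differences near 0 reversed. With 1 array left out, Col2a1 ran from -0.28 to 0.13 (LY294002), -0.15 to 0.26 (UO126), -0.27 to 0.14 (SB202190) and -0.24 to 0.17 (TSA). Col1a1 ran from -0.23 to 0.14 (LY294002) and -0.0538 to 0.32 (UO126), and Sox9 from -0.0295 to 0.27 (LY294002) and -0.12 to 0.22 (UO126). Quantile normalization gave -0.0481 for Col1a1 with LY294002 and -0.13 for Col2a1 with TSA, and median scaling gave 0.10 and 0.0254 for Col2a1 with LY294002 and SB202190. The causes were not tested. With 3 arrays per group and signals only, a gene under 50 has no reliable level.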

Other observations

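Among the genes that differed by array number in the treated arrays were immediate early genes, which cells switch on within minutes of a stimulus. They were chosen after their values were seen. Fos was 2154, 2262 and 327 with LY294002, 604, 635 and 161 with UO126, 1100, 1427 and 336 with SB202190 and 2175, 3033 and 795 with TSA, so array 3 was lowest in each group (log2 difference of numbers 3 and 1 -1.95, limma adjusted p = 0.000105). On the DMSO arrays Fos was 490, 608 and 383. Nr4a1, a nuclear receptor, was 764, 1020 and 239 with LY294002 and 1060, 1044 and 343 with TSA, but 144, 191 and 178 in DMSO. Egr2 differed by -2.01 in the treated arrays (limma adjusted p = 0.000121) and by 0.35 between DMSO 3 and DMSO 1. Egr1, which also stands in the tendon list, was 2104, 2584 and 1952 in DMSO. The difference between the DMSO and the treated arrays in this respect was not tested.

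Several imprinted fetal growth genes, expressed from 1 parental copy, stood among the 100 strongest signals, an observation made after the ranks were seen and not tested. They were Igf2 at rank 23, Mest at 51, Dlk1 at 52, Plagl1 at 70, Grb10 at 86 and Peg3 at 99.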
